A study of Mus musculus with 8 samples.

Results

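The genes described here encode the proteins that carry thyroid hormone in plasma, take it into cells, deiodinate it, hold it in the cytosol and bind it in the nucleus, together with 1 gene that responds to it. The 8 genes are Serpina7, Ttr, Slc16a10, Dio1, Crym, Thra, Thrb and Klf9, out of 19934 genes named by the arrays used. They were chosen by name from the pathway with the difference between NS-DADm and WT livers already known, so their values in that comparison are a description and carry no p-value. The mice were C57Bl/6 males aged 10 to 12 weeks on normal chow and a daily cycle of 12 h light, 12 h dark; livers were collected at ZT10, that is, 10 h after lights on. The 4 NS-DADm samples carry mutations in the deacetylase-activating domain (DAD) of both corepressors, NCOR and SMRT, and the 4 WT samples carry neither. The study asked which liver transcripts differ between these genotypes, and the labels do not give zygosity, littermates or whether each array came from a separate animal. Any p-value below thus reflects sample-to-sample spread alone, part or all of which could be technical.

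Thyroxine circulates bound to plasma proteins made largely in the liver, and hepatocytes take it up through membrane carriers. Deiodinases turn it into triiodothyronine, the form that binds the nuclear receptors. Thyroid hormone receptors sit on DNA with or without hormone: without it they recruit NCOR or SMRT, whose deacetylase-activating domain binds the histone deacetylase HDAC3 and switches it on, and with it they exchange corepressors for coactivators.

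RNA was hybridised to short-oligonucleotide arrays that read many exons of each gene, and values are log2 intensities as deposited by the authors. Array medians lay between 7.39 and 7.50. Hepatocyte markers defined the tissue, with a mean of 13.50 to 13.53 over 7 genes in NS-DADm arrays and 13.52 in every WT array. Thyroid gland markers lay between 5.09 and 8.31 as means over all arrays, with no call among 7 genes in limma's moderated test (0 also at an unadjusted p under 0.05). The number of arrays limits the precision. In bulk liver, fewer cells of a type and less RNA per cell cannot be told apart.

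Serpina7 was the member that separated the genotypes. It encodes thyroxine-binding globulin, a serpin that has lost protease inhibition and carries thyroxine in plasma. Its log2 intensity was 10.99, 10.74, 10.84 and 10.97 in NS-DADm replicates 1 to 4, against 8.55, 9.12, 8.89 and 9.69 in WT replicates 1 to 4. Every NS-DADm array lay above every WT array, with 1.05 log2 units between the lowest NS-DADm array and the highest WT array. The means were 10.89 ± 0.12 in NS-DADm livers and 9.06 ± 0.48 in WT livers (SD, n = 4 each), a difference of 1.82 on the log2 scale (SE 0.19, 95% confidence interval 1.40 to 2.25), or 3.54-fold. It was the third largest difference upward among all genes.

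The NS-DADm arrays lay close together for Serpina7 and the WT arrays did not. Their range was 0.25 log2 units in NS-DADm livers, or 1.19-fold, and 1.14 in WT livers, or 2.20-fold. WT replicate 4 was the highest WT array and WT replicate 1 the lowest. With 1 array left out the difference lay between 1.65 (without WT replicate 1) and 2.03 (without WT replicate 4).

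**Figure D1:**
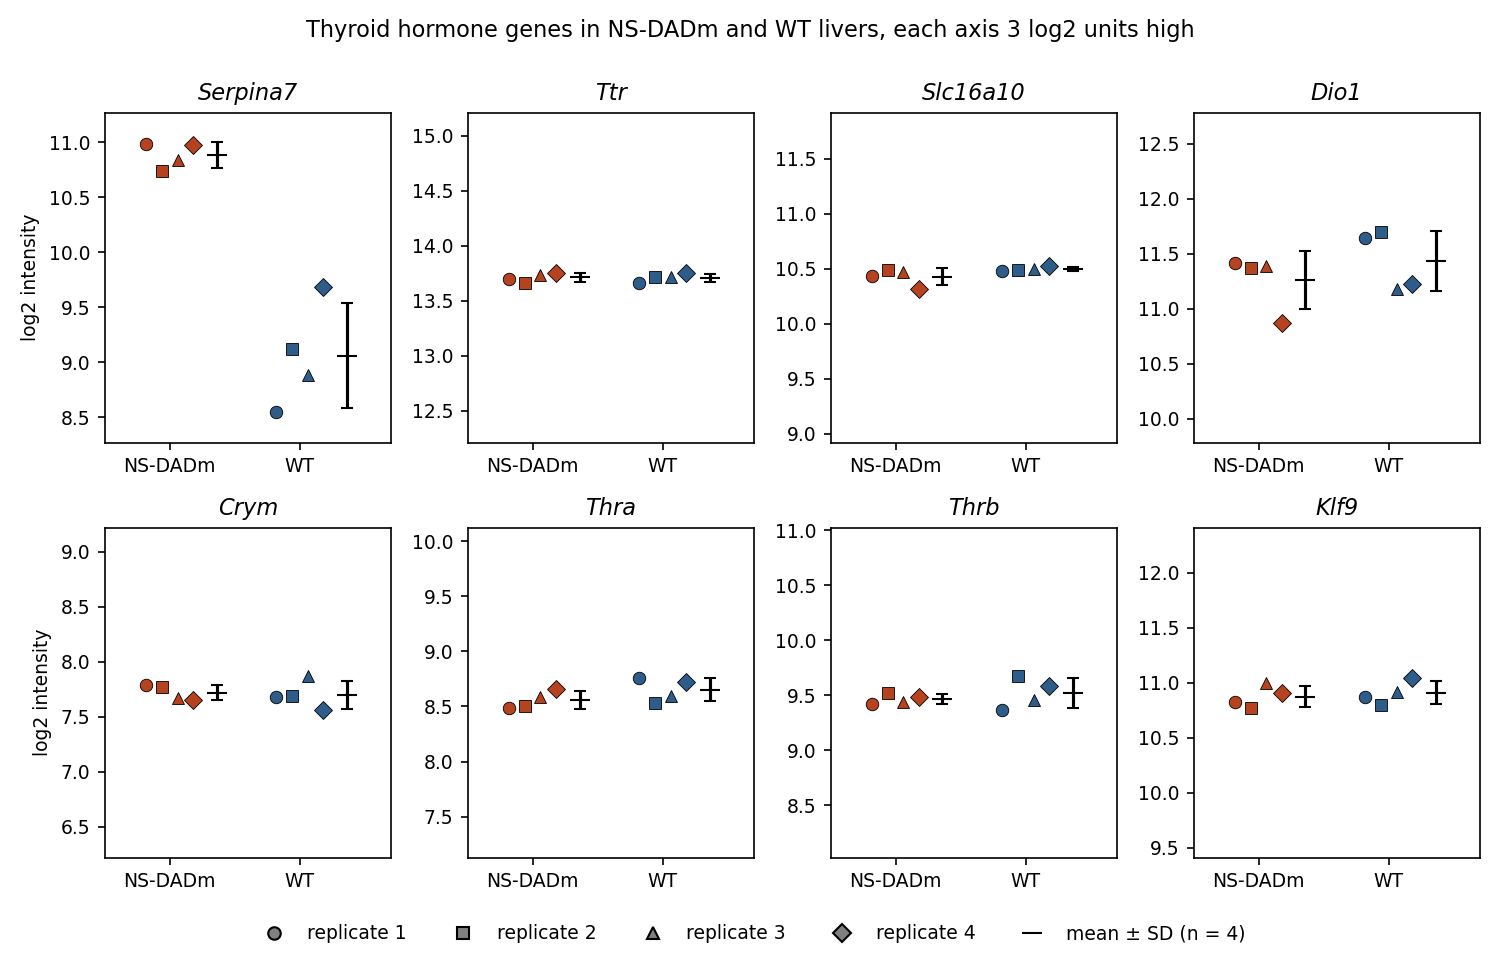
Log2 intensity of the 8 thyroid hormone genes (vertical axes, each 3 log2 units high so that distances compare between panels) in NS-DADm and WT livers (horizontal axis), with a marker shape for each replicate and bars for the mean ± SD of 4 arrays. The groups stand apart in the Serpina7 panel, at 10.74 to 10.99 in NS-DADm livers and 8.55 to 9.69 in WT livers, and overlap in the other 7 panels.

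Over all genes limma called 54 of 19934, 0.271%, at an adjusted p under 0.05, and 1 of the 8 members, Serpina7, was among them. The groups of arrays did not overlap for 5.63% of all genes and for 1 of the 8 members, again Serpina7. The choice of members used this contrast, so neither count is evidence about the set. The median difference of the 8 members was -0.05 on the log2 scale, against -0.01 over all genes.

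The sequence before the start of Serpina7 is shown because this gene carries the difference, and those of Dio1 and Thrb because Dio1 is a target of thyroid hormone and Thrb encodes its receptor. Each window holds the 250 bases before a RefSeq transcript start on GRCm38.p6, written 5′ to 3′ on the gene's strand. RefSeq windows were found for 5 of the 8 genes, 7 windows in all. Capitals mark matches on either strand to AGGTCA, the core that thyroid hormone receptors and many other nuclear receptors read, to the TATA box letters TATAAA and to the GC box letters GGGCGG.
Serpina7, chrX:139085220-139085469, minus strand: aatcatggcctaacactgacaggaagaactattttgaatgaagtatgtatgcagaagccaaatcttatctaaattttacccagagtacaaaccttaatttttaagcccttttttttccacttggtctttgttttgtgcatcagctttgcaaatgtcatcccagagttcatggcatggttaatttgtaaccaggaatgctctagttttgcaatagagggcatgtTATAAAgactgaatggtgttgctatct
Dio1, chr4:107307169-107307418, minus strand: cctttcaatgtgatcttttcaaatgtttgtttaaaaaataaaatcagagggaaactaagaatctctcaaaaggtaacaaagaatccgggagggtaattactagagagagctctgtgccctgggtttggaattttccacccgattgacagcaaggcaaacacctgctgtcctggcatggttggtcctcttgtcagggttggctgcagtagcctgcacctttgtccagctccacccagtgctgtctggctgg
Thrb, chr14:17660710-17660959, plus strand: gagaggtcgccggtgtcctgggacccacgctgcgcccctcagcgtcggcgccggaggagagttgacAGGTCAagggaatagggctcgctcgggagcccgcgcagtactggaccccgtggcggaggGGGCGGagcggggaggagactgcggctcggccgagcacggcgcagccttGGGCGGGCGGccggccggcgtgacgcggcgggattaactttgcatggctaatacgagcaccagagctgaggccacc

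In the Serpina7 window the single match was TATAAA, 27 to 22 bases before the start shown. The window of a second Serpina7 start overlaps this one and holds the same match, 10 to 5 bases before that start. The Dio1 window held none of the 3 motifs. The Thrb window held AGGTCA 184 to 179 bases before the start and 3 matches to GGGCGG, of which 2 overlap each other. AGGTCA was found in 1 of the 7 member windows and in 14.0% of all 32851 windows in the table. The direct repeat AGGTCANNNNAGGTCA, the spacing thyroid hormone receptors prefer, was found in 0 of the 7 and in 0.02% of all. TATAAA was found in 3 of the 7 and in 12.4% of all, and GGGCGG in 2 of the 7 and in 32.7% of all. The overlapping Serpina7 windows share 1 TATAAA match and make up 2 of the 3. The third, in a second Thrb window, lies 167 to 162 bases before its start. By gene TATAAA was found in 2 of the 5 members with windows, beside 14.3% of all genes. G and C made up 36.4% of the Serpina7 window, 46.8% of the Dio1 window and 71.6% of the Thrb window shown, with a median of 52.4% over all windows. A match is a description of these letters, and no binding was measured.

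The second plasma carrier, Ttr, did not separate the genotypes. It encodes transthyretin, which carries thyroxine and, through retinol-binding protein, vitamin A. Ttr stood at 13.70, 13.66, 13.74 and 13.76 in NS-DADm arrays, against 13.66, 13.71, 13.71 and 13.75 in WT arrays. The groups overlapped, with 3 of 4 NS-DADm arrays inside the WT range. The means were 13.71 ± 0.04 and 13.71 ± 0.04 in NS-DADm and WT livers (SD, n = 4 each), and the 95% confidence interval of the ratio ran from 0.93 to 1.08. These values are near the top of the scale of the arrays, whose highest value was 14.37, where an intensity can understate a change.

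Slc16a10 encodes a transporter of aromatic amino acids that also moves thyroid hormones across the cell membrane. Its values were 10.43, 10.49, 10.48 and 10.31 in NS-DADm arrays, against 10.48, 10.49, 10.50 and 10.52 in WT arrays. All 4 NS-DADm arrays lay below the WT mean, but 1 lay inside the narrow WT range, which spanned 0.05 log2 units. The difference was -0.07 (SE 0.05, 95% confidence interval -0.19 to 0.05), and -0.03 without NS-DADm replicate 4.

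Dio1 encodes the type 1 deiodinase, a selenoenzyme of liver, kidney and thyroid that activates thyroxine and clears inactive forms, and whose transcript is a known target of thyroid hormone. It stood at 11.41, 11.37, 11.38 and 10.87 in NS-DADm arrays, against 11.64, 11.69, 11.17 and 11.23 in WT arrays. NS-DADm replicate 4 was the lowest array of all, and the other 3 NS-DADm arrays lay inside the WT range. The WT arrays themselves formed a higher pair, replicates 1 and 2, and a lower pair, replicates 3 and 4. The means were 11.26 ± 0.26 in NS-DADm livers and 11.43 ± 0.27 in WT livers (SD, n = 4 each), a difference of -0.18 (SE 0.15, 95% confidence interval -0.50 to 0.15). It was -0.04 without NS-DADm replicate 4.

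Crym encodes mu-crystallin, a cytosolic protein that binds triiodothyronine with NADPH. Its values were 7.79, 7.77, 7.67 and 7.65 in NS-DADm arrays, against 7.68, 7.69, 7.87 and 7.57 in WT arrays. All 4 NS-DADm arrays lay inside the WT range, and the difference was 0.02 (95% confidence interval -0.14 to 0.17).

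Thra and Thrb encode the nuclear receptors, of which the beta receptor is the main form in hepatocytes. Thra stood at 8.49, 8.50, 8.59 and 8.66 in NS-DADm arrays, against 8.76, 8.54, 8.60 and 8.72 in WT arrays. The groups overlapped, the means were 8.56 ± 0.08 in NS-DADm livers and 8.65 ± 0.11 in WT livers (SD, n = 4 each), and the difference was -0.09 (SE 0.07, 95% confidence interval -0.24 to 0.06), and -0.06 without WT replicate 1. The Thra locus overlaps Nr1d1, a clock repressor gene on the opposite strand, which differed by -0.38 with a limma adjusted p of 0.74. One probe set reads each receptor gene, so receptor isoforms were not told apart.

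Thrb stood at 9.42, 9.52, 9.44 and 9.48 in NS-DADm arrays, against 9.37, 9.68, 9.45 and 9.58 in WT arrays. All NS-DADm arrays lay inside the WT range and below the WT mean. The means were 9.46 ± 0.04 in NS-DADm livers and 9.52 ± 0.14 in WT livers (SD, n = 4 each), and the ratio had a 95% confidence interval of 0.86 to 1.07. Its difference of -0.06 was -0.00 without WT replicate 2.

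Klf9 encodes a zinc-finger transcription factor whose gene thyroid hormone induces directly in several mammalian tissues. It stood at 10.83, 10.77, 11.00 and 10.91 in NS-DADm arrays, against 10.88, 10.80, 10.91 and 11.05 in WT arrays. The groups overlapped, and the difference was -0.03 (SE 0.07, 95% confidence interval -0.19 to 0.12). Klf9 also follows the clock and glucocorticoids, and all samples came from 1 time of day.

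**Figure D2:**
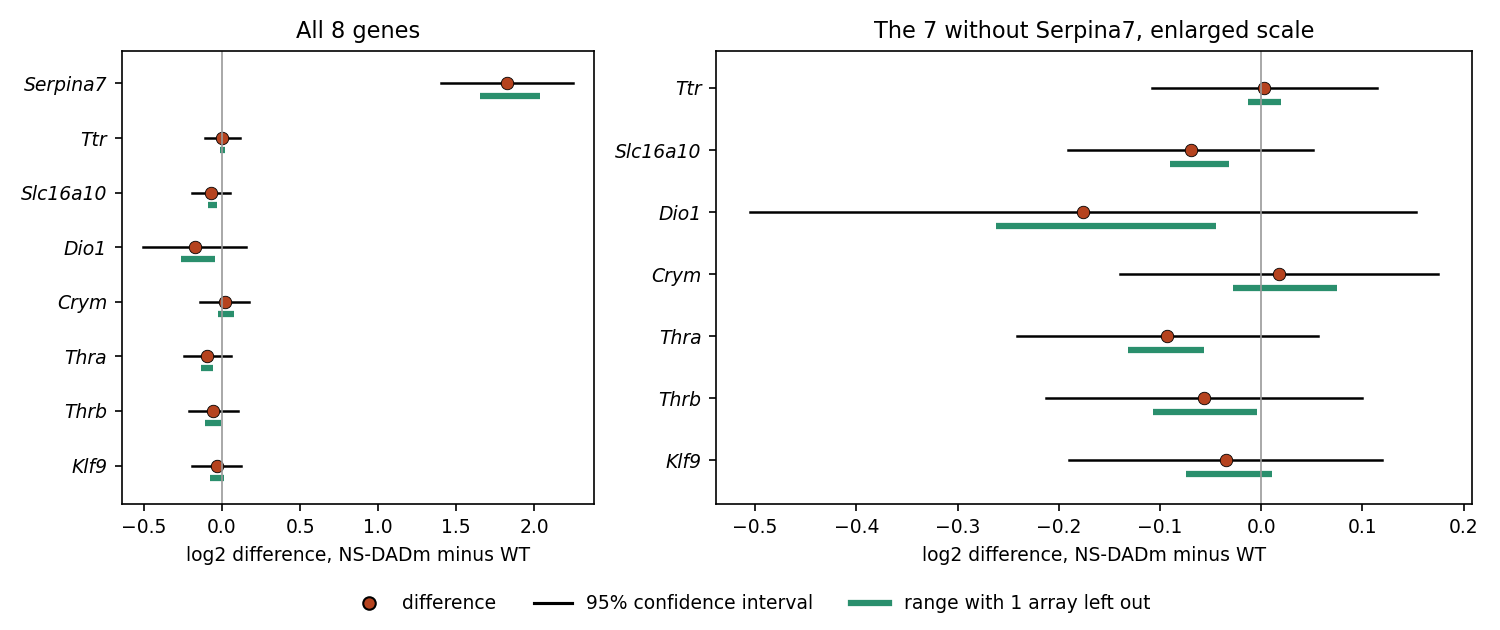
Log2 difference between NS-DADm and WT livers (horizontal axis, NS-DADm minus WT) for all 8 genes on the left and for the 7 genes without Serpina7 on an enlarged scale on the right. Points are differences of group means, black lines 95% confidence intervals and green bars the range with each of the 8 arrays left out in turn. Serpina7 lies at 1.82, and the other 7 lie between -0.18 (Dio1) and 0.02 (Crym), each with an interval that includes 0.

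Of the 7 members other than Serpina7, 5 had a difference below 0 and 2 above 0. Their intervals stayed between -0.50, the lower end for Dio1, and 0.17, the upper end for Crym. A difference within an interval that includes 0 is not shown to be absent, and the widest interval, that of Dio1, spans ratios from 0.70 to 1.11. Leaving out 1 array turned the sign of Ttr (-0.01 to 0.02), Crym (-0.03 to 0.07) and Klf9 (-0.07 to 0.01).

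Beyond the 8 members, 56 other genes were measured, of 62 listed in 5 groups around thyroid hormone biology. The plasma carrier group includes carriers of other hormones and vitamins, such as the insulin-like growth factor binding proteins. At an adjusted p under 0.05 over all genes limma called 1 of the 56. Sult1a1, which encodes a phenol sulfotransferase that sulfates iodothyronines and many other phenols, stood at 11.21, 11.24, 10.98 and 11.20 in NS-DADm arrays, against 10.77, 10.70, 10.64 and 10.51 in WT arrays. All NS-DADm arrays lay above all WT arrays. Sult1a1 rose by 0.50 on the log2 scale, 1.42-fold (SE 0.077, limma adjusted p = 0.0259), with means of 11.16 ± 0.12 in NS-DADm livers and 10.66 ± 0.11 in WT livers (SD, n = 4 each). The call was lost without NS-DADm replicate 1 or 2 (adjusted p = 0.0849 and 0.103), without WT replicate 2, 3 or 4 (0.106, 0.0904 and 0.0503) and after quantile normalization (0.0656), while the difference stayed between 0.45 and 0.56 in all 16 alternatives, with adjusted p from 0.0125 to 0.106.

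Of the 10 measured genes of deiodination, conjugation and selenoprotein synthesis, Sult1a1 was the 1 called, and 2 had an unadjusted p under 0.05. Sult1b1, a second sulfotransferase gene, was at 0.19 (adjusted p = 0.79). Iyd, the iodotyrosine deiodinase gene, was at -0.19 (adjusted p = 0.43) and was the other gene with an unadjusted p under 0.05. Dio2 and Dio3, the other deiodinase genes, were at 0.01 and -0.01. Their WT means of 6.00 and 6.50 lay below the array medians, where a difference can be understated. Sephs2, which makes the selenium donor for all selenoenzymes, was at -0.00. The group's median was 0.00.

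Of the 11 other plasma carriers of hormones and vitamins measured, limma called 0, with 0 at an unadjusted p under 0.05. Serpina6, which encodes corticosteroid-binding globulin, a serpin relative of Serpina7, stood at 12.76, 12.88, 13.05 and 13.24 in NS-DADm arrays, against 12.97, 12.98, 12.89 and 12.87 in WT arrays. Its groups overlapped and the difference was 0.05 (adjusted p = 0.96). Albumin, the bulk carrier encoded by Alb, was at 0.01, and Rbp4, whose product travels with transthyretin, at -0.05. Their WT means of 13.96 and 13.87 are near the top of the scale, where an intensity can understate a change. The furthest from 0 were the insulin-like growth factor binding protein genes Igfbp3 at -0.39 (adjusted p = 0.67) and Igfbp1 at 0.27 (adjusted p = 0.81). Igfbp3 stood at 8.70, 8.82, 9.04 and 9.96 in NS-DADm arrays, against 9.41, 9.70, 9.45 and 9.53 in WT arrays, and without NS-DADm replicate 4 its difference was -0.67 with an adjusted p of 0.0155. The mean of the stellate cell markers had the same order of arrays within each genotype, at 9.18, 9.46, 9.51 and 9.92 in NS-DADm arrays, against 9.61, 9.88, 9.62 and 9.78 in WT arrays. That of the sinusoidal endothelial markers was 9.26, 9.52, 9.50 and 9.86 in NS-DADm arrays, against 9.74, 9.94, 9.84 and 9.80 in WT arrays. That of the Kupffer cell markers was 8.50, 8.80, 9.20 and 9.59 in NS-DADm arrays, against 9.09, 8.74, 8.65 and 9.21 in WT arrays. NS-DADm replicate 1 was the lowest and replicate 4 the highest NS-DADm array for Igfbp3 and for all 3 marker lists, whose part in the Igfbp3 values was not tested.

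Of 11 other carriers of thyroid hormone across membranes, limma called 0, with 1 at an unadjusted p under 0.05. Slco1a1, an organic anion transporter gene of male mouse liver, was at -0.29 (adjusted p = 0.30), with NS-DADm arrays up to 12.289 and WT arrays from 12.291, so the groups all but touched. Slc17a4, a sodium phosphate cotransporter family gene, was at 0.38 (adjusted p = 0.64). Slc10a1, the bile acid carrier of the sinusoidal membrane, was at 0.02, with a WT mean of 13.32, also near the top of the scale. The group's median was -0.05.

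Receptor partners and coactivators had 8 of 11 members below 0 and a median of -0.11. In this group limma called 0, with 4 at an unadjusted p under 0.05, all lower. The 4 were Ppargc1b, Ep300 at -0.19 (adjusted p = 0.29), Ncoa1 at -0.19 (0.43) and Crebbp at -0.13 (0.52). The share of all genes at an unadjusted p under 0.05 is not given here, so the unadjusted counts of the lists are not read further. Ppargc1b was at -0.42 (adjusted p = 0.34) and Ppargc1a at -0.24 (adjusted p = 0.92); both encode coactivators of metabolic genes. Ppargc1a stood at 8.31, 8.77, 9.48 and 10.02 in NS-DADm arrays, against 9.31, 9.13, 9.55 and 9.56 in WT arrays, so NS-DADm arrays spread both below and above the WT arrays. Rxra, the usual liver partner of the receptors on DNA, was at -0.09 (adjusted p = 0.70).

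Genes known to respond to thyroid hormone in rodent liver had 10 of 13 measured members above 0 and a median of 0.09, with 0 called by limma and 2 at an unadjusted p under 0.05. Bcl3, which encodes a nuclear co-factor of NF-kappaB, was at 0.70 (adjusted p = 0.27), at 10.82, 10.15, 9.72 and 9.77 in NS-DADm arrays, against 9.49, 9.56, 9.26 and 9.36 in WT arrays. Cyp7a1, the rate-limiting enzyme of bile acid synthesis, was at 0.56 (adjusted p = 0.57), with overlapping groups. Thrsp, the classic thyroid hormone responsive gene of rodent liver, was at 0.32 (adjusted p = 0.78), and Me1, malic enzyme, at 0.03 (adjusted p = 0.99). Pck1, the gluconeogenic gene, was at -0.23 (adjusted p = 0.28).

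**Figure D3:**
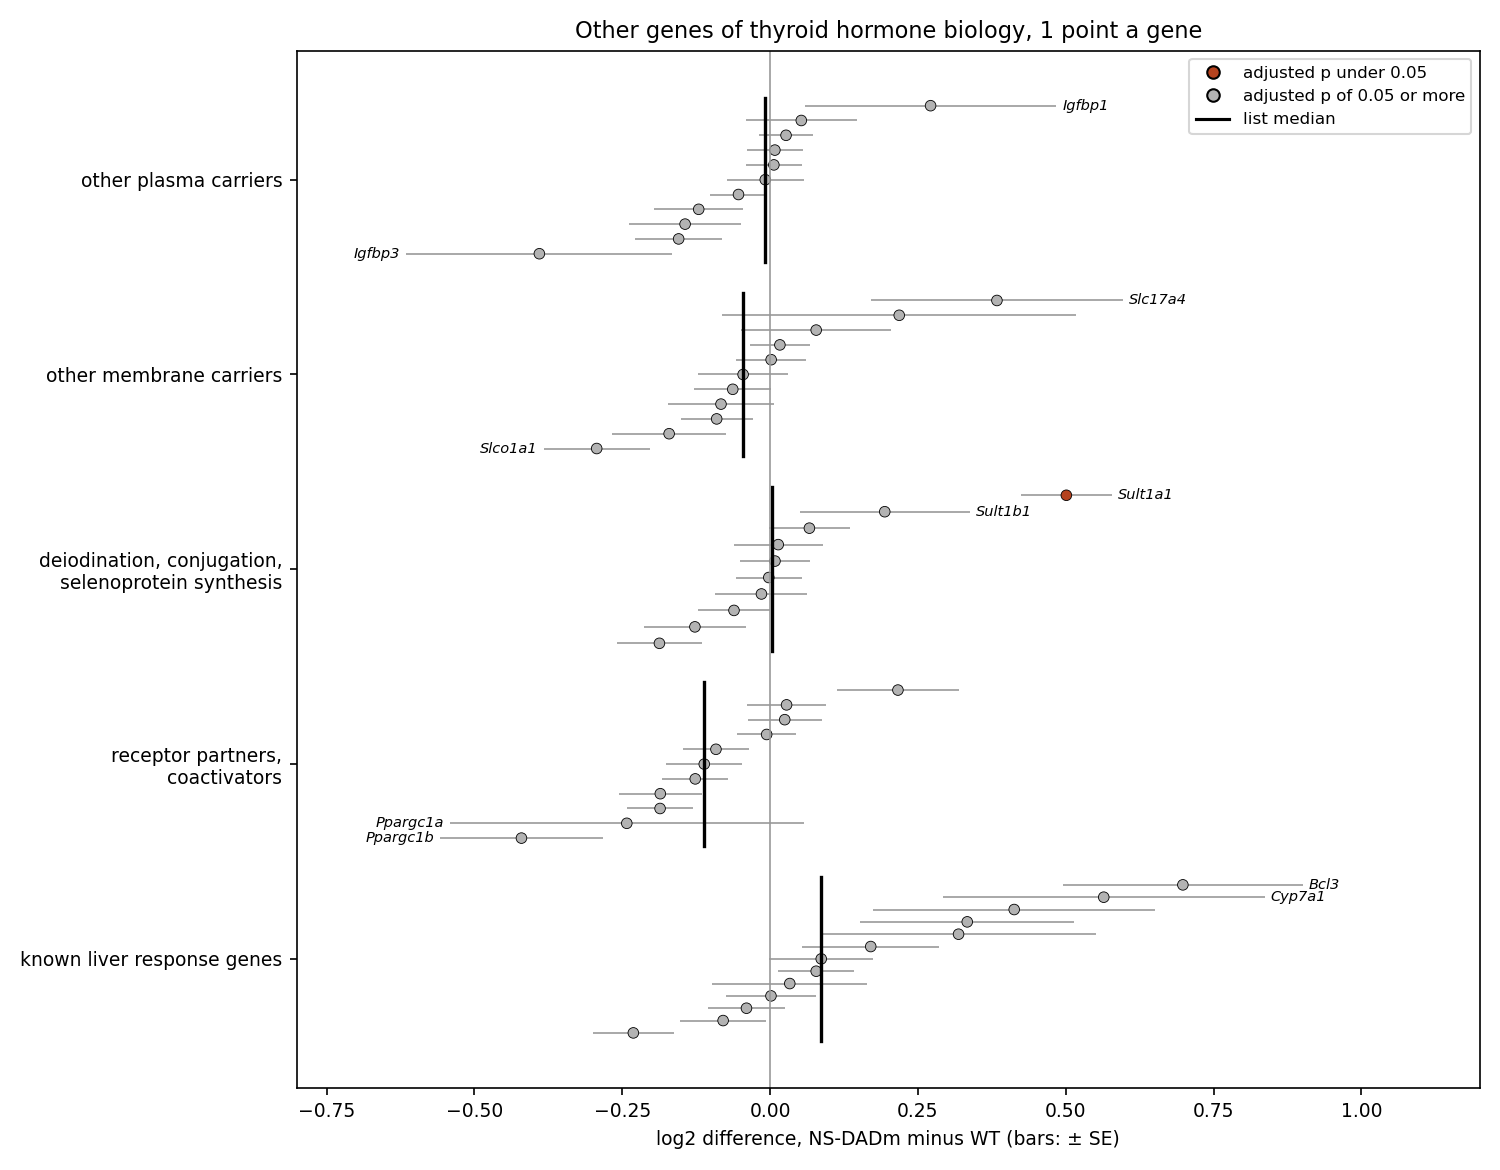
Log2 difference between NS-DADm and WT livers (horizontal axis, NS-DADm minus WT, lines ± SE) for 56 other listed genes in 5 groups. Points are single genes, sorted within each group, and black bars are group medians. The plasma carrier group includes carriers of other hormones and vitamins. The coloured point is Sult1a1 at 0.50, the 1 gene with an adjusted p under 0.05, and the medians run from -0.11 in receptor partners and coactivators to 0.09 in known liver response genes.

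Over the 5 groups together 28 genes lay above 0 and 28 below, with a median of -0.00, against -0.01 over all genes. The groups of arrays did not overlap for 6 of the 56, or 10.7%, beside 5.63% of all genes. The 56 genes were listed with results of these data known, so no more is read from these counts.

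The pattern of Serpina7 across the 8 arrays was set against 9966 other genes at or above the median level. The 5 most alike were Cd36, a fatty acid translocase gene (Pearson r = 0.99), Tars, a threonyl-tRNA synthetase gene (0.98), Nr2c1, an orphan nuclear receptor gene (0.97), As3mt, an arsenic methyltransferase gene (0.96), and Tbl1x, which encodes a subunit of the corepressor complex (0.96). The arrays of a genotype share the group difference, which raises such values. Picking the most alike of 9966 genes over these same arrays raises them too, also within genotypes. After group means were removed r over the same 8 arrays was 0.90 for Cd36, 0.88 for Tars, 0.94 for Nr2c1, 0.65 for As3mt and 0.81 for Tbl1x, as a description of these arrays. Cd36 stood at 10.40, 10.09, 10.27 and 10.10 in NS-DADm arrays, against 8.39, 9.14, 8.88 and 9.33 in WT arrays. WT replicate 4 was the highest and WT replicate 1 the lowest WT array for both Serpina7 and Cd36. The differences were 1.28 for Cd36, 0.38 for Tars, 0.33 for Nr2c1, 0.49 for As3mt and 0.20 for Tbl1x. Their limma adjusted p were 0.013, 0.0583, 0.129, 0.0177 and 0.234, so Tars, Nr2c1 and Tbl1x were not called.

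**Figure D4:**
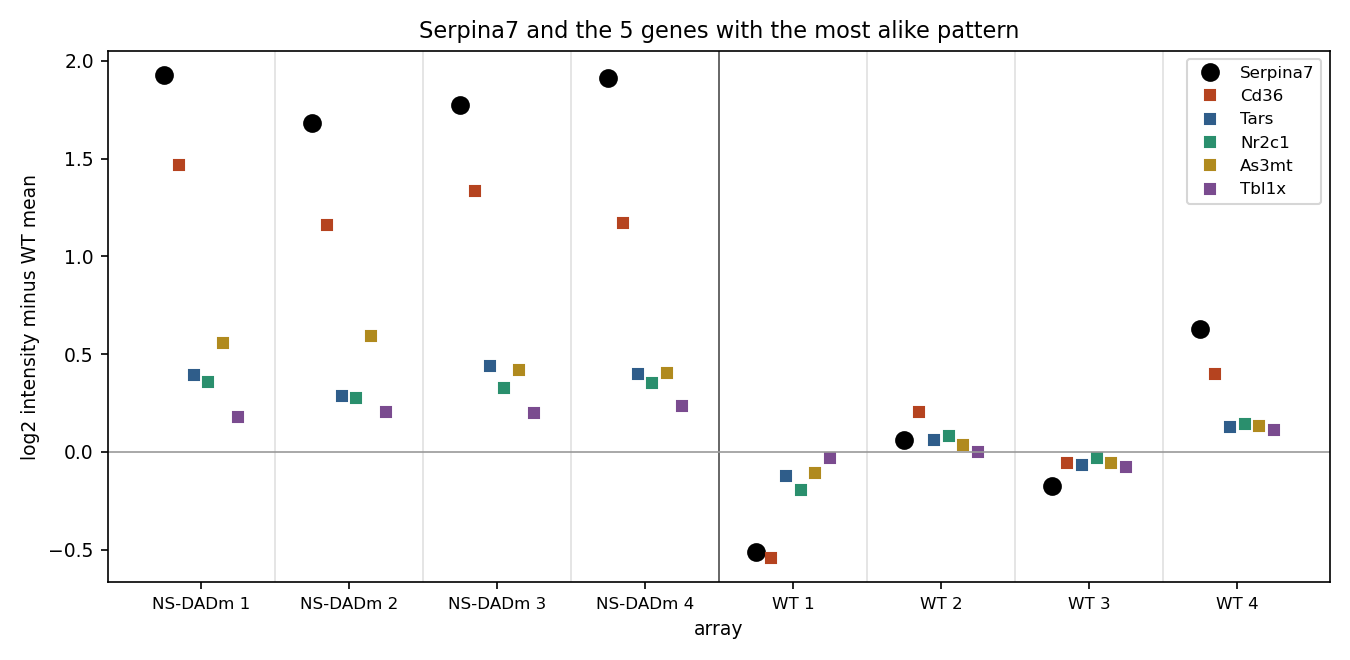
Log2 intensity minus the WT mean of the same gene (vertical axis) in each of the 8 arrays (horizontal axis) for Serpina7 (black circles) and the 5 genes with the highest Pearson r to it (coloured squares). The NS-DADm arrays lie above the WT mean for all 6 genes, and among WT arrays replicate 4 is the highest for each of them. The choice by r over these arrays favours both likenesses.

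Markers of other cell types were read in the same arrays. All 7 sinusoidal endothelial markers had differences below 0, the furthest Clec4g at -0.36 (adjusted p = 0.24), with a median of -0.31, 0 called by limma and 6 at an unadjusted p under 0.05, and their mean level ran from 9.26 to 9.86 in NS-DADm arrays and from 9.74 to 9.94 in WT arrays. All 6 stellate cell markers were below 0, the furthest Ecm1 at -0.48 with an adjusted p of 0.45 (median -0.15, 0 called, 2 at an unadjusted p under 0.05), at 9.18 to 9.92 in NS-DADm arrays and 9.61 to 9.88 in WT arrays. All 6 neutrophil markers were above 0, the furthest S100a9 at 0.22 with an adjusted p of 0.35 (median 0.15, 0 called, 2 at an unadjusted p under 0.05), at 6.11 to 6.32 in NS-DADm arrays and 5.96 to 6.13 in WT arrays. As means over all arrays these 6 genes lay at 5.39 to 6.87, below the array medians. Whether their signal stood above background could not be judged. The 7 Kupffer cell markers had a median of 0.09, with Marco furthest at 0.28, 0 called by limma and 0 at an unadjusted p under 0.05. The 7 hepatocyte markers had a median of 0.01, with Tat furthest at -0.20, 0 called by limma and 1 at an unadjusted p under 0.05; they lie at 12.66 to 13.97, near the top of the scale. The lists of cholangiocytes, skeletal muscle, adipose tissue, pancreas and thyroid gland had medians between -0.03 and 0.02, with 0 called by limma and 0 at an unadjusted p under 0.05 in each. Their furthest genes were Epcam at -0.09, Acta1 at 0.10, Fabp4 at 0.14, Cela1 at -0.15 and Duox2 at -0.09. The unadjusted counts of the marker lists have no share over all genes beside them and are not read further. Whether the shares of other cells have a part in the differences described here was not tested.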

How the data were processed

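Liver RNA of 4 NS-DADm and 4 WT samples was measured on Affymetrix arrays, 1 array a sample, and groups follow the sample titles. The submitters' processing notes name RMA and Partek, without their order, versions or settings. What the authors deposited was read as log2 intensity from its range, 3.43 to 14.37, and every fold rests on that reading. RMA compresses differences at low intensity. No detection call or batch was given.

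Of 28270 probe sets 21780 named 1 gene, 1617 several and 4873 none in the platform annotation; symbols were updated by Entrez identifier through a RefSeq table (GRCm38.p6), which matched 19852 of 19934 genes. The probe set with the highest mean stood for a gene; each member had 1. No low-value filter was used. limma 3.58.1 (R 4.3.3; lmFit, eBayes, no trend) gave two-sided p-values, adjusted by Benjamini and Hochberg's method across the 19934 genes and called under 0.05; it was tested on simulated data. Alternatives changed the probe set rule, level filter, normalization, variance model, weights, block or arrays used. Errors are SDs over arrays, and SEs and intervals come from that fit. Members and lists were chosen with earlier results of these data known. Named were all members, each list's called genes and 2 largest differences, the genes most alike by Pearson r and each marker list's largest difference. Some further listed genes were named by role or unadjusted p, chosen after their values were seen. Probe sets naming several genes, and 6 listed genes, were not analysed here. Figures used Python 3.11.15 and matplotlib 3.10.9.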

Additional observations from a re-analysis of the deposited data

Results flagged for a closer look

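The 36 sets of 4 arrays examined were those in each genotype of the 8 members and of 10 listed genes. The listed genes were the called one and those with the largest differences of each list. Of the 36 sets 2 held an array far from the other 3, where chance alone would mark about 1 in 20. In Dio1, NS-DADm replicate 4 was at 10.866, with the remaining 3 between 11.37 and 11.41. In Sult1a1, NS-DADm replicate 3 was at 10.977, with the remaining 3 between 11.20 and 11.24.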

How the results depend on the processing

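All 128 member differences recomputed under 16 alternatives, 8 of processing and 8 with an array left out, stayed within 1 SD of replicates of the reported value. Most could not do otherwise, since leaving out 1 of 4 arrays cannot move a difference that far. Changing the probe set rule returned the same member differences, as each member had 1 probe set. Changing the level filter, variance model or block returned them too, as none of these alters the difference of group means. Only the changed normalizations and the array weights could have moved them further. Serpina7 was called in all 16 and no other member in any. The count of genes called over all genes, 54, was 109 with array weights and 105 with the replicate block, and from 13 to 126 with 1 array left out. The lowest counts came when WT replicate 2 (13) or 3 (22) was dropped; dropping NS-DADm replicate 2, 3 or 4 gave 31, 35 or 126. The 54 split into 32 upward and 22 downward calls, and the 126 into 59 and 67. The count of listed genes called, 1, was 0 after quantile normalization and from 0 to 2 with 1 array left out. Without NS-DADm replicate 4 Igfbp3, of the plasma carrier group, joined Sult1a1. The causes were not tested. The block kept the call of Sult1a1 (limma adjusted p = 0.0278), but the labels do not say whether same-numbered arrays are paired. Deviations of same-numbered arrays correlated at -0.10 to 0.25 over 4 pairs, and 3 of 8 arrays correlated best with their own number. So few correlations cannot settle whether the arrays were paired. Signal over background could not be judged for any gene, and the arrays of a group number 4.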

Other observations

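The genes on either side of Serpina7 on the X chromosome, chosen by position after its value was known, were set beside it. The nearest measured protein-coding genes were Il1rapl2 at 0.01, Nrk at 0.08, 4930513O06Rik at 0.04 and 4933428M09Rik at -0.07 on the log2 scale (limma adjusted p = 0.99, 0.82, 0.91 and 0.89). The mean of each of these neighbours lay below the array medians in both genotypes, where a difference can be understated. Their values thus cannot show whether the difference is confined to Serpina7.

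For each other member the 1 gene most alike over the 8 arrays was Aga for Ttr (Pearson r = 0.98), Zfp108 for Slc16a10 (0.95), Mfn2 for Dio1 (0.96), Prdm11 for Crym (0.96), Oas2 for Thra (0.94), Tmed4 for Thrb (0.98) and Klhl24 for Klf9 (0.98). The best of 9966 values over 8 arrays is high by selection, so these are descriptions. Within genotypes, after group means were removed, r over the 28 pairs of members ran from -0.64 (Ttr and Dio1) to 0.74 (Ttr and Klf9), over the same 8 arrays.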
